A study of Homo sapiens with 9 samples.

Results

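The genes described here were 35 homeobox genes: 10 of the HOXB cluster, 9 of the HOXC cluster, 9 of the HOXD cluster and 7 of the TALE class (MEIS2, MEIS3, PBX2, PBX3, PBX4, PKNOX1 and PKNOX2). They were found by gene symbol among the 25680 symbols of the count files, and where a symbol had several RefSeq transcripts, the transcript with the highest total was used. They were measured by mRNA sequencing of SKNO-1, an established line of human acute myeloid leukaemia with the AML1-ETO (RUNX1-RUNX1T1) fusion, which the study describes as wild type for ASXL1 and ASXL2. The comparison asked what changed when ASXL2, a Polycomb and Trithorax group protein, was knocked down with either of 2 shRNAs. The groups were EV (control), SH2 and SH3 (one ASXL2 shRNA each), with 3 samples per group, and every group carried the fusion and was grown by the study's methods in medium with GM-CSF. The time between shRNA delivery and harvest was not given in the sources used here. The labels do not spell out EV, whereas the study speaks of a control shRNA, and which construct these cells carried is therefore unclear. The extraction text of the labels describes sorted bone marrow cells and not this line. SKNO-1 is 1 cell line, so the values describe that line and not AML1-ETO leukaemia at large. Each group held samples numbered 1, 13 and 25, a number whose meaning the labels do not give. The study states that 3 biological replicates were used, but the labels do not tie samples to separate cultures, so the p-values below measure the spread between these samples.

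HOX genes encode transcription factors that set positional identity in the embryo, and in blood several of them are high in stem and progenitor cells and are switched off as cells mature. HOX proteins gain DNA-binding specificity by pairing with TALE proteins: PBX and MEIS or PKNOX proteins bind DNA beside them, and PBX proteins need MEIS or PKNOX partners to stay in the nucleus. Polycomb proteins keep HOX clusters silent and Trithorax proteins such as KMT2A keep them active, and the ASX gene for which the ASXL family is named was found in fruit flies through its effects on HOX genes.

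The libraries held 27714431 to 35406063 counts with 1 transcript per gene. ASXL2 itself was measured at 67.9, 67.9 and 74.7 CPM (the count per 1e+06 counts of the TMM-adjusted library total) in EV samples 1, 13 and 25, at 30.4, 36.2 and 36.2 CPM in SH2, and at 26.9, 29.1 and 41.1 CPM in SH3. All 6 knockdown samples were below all 3 EV samples, with a mean log2 difference of -1.09 (two-sided exact permutation test, p = 0.0119, the smallest that the 84 splits allow). These splits ignored the sample number, so the p-value does not take the pairing of samples by number into account. Across all genes ASXL2 was not called by edgeR without the sample number in the model (mean of both shRNAs against EV, adjusted p = 0.178), and was called with the number as a block (adjusted p = 0.00098). The 3 samples numbered 1 stood apart from the other 6 on the first principal component, which held 52.9% of the variance, and SH3 sample 1 lay farthest out at -58.6. Of the myeloid markers, MPO (8251 CPM in EV), KIT, CD33, ANPEP, SPI1 and CEBPA were all expressed, while CD34, which marks immature blasts, had only 2 to 10 counts per sample. RUNX1T1, a part of the fusion, was also expressed, and its counts do not separate fusion transcripts from those of the gene itself. Among markers of T cells, fibroblasts, epithelium and red cells, CD3E, COL1A2, KRT19 and HBB had no count, CD3D, COL1A1, DCN, EPCAM and CDH1 had at most 5, and PDGFRB had 0.935 to 1.97 CPM.

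The HOX clusters were almost without reads. Genes were divided into silent (no count in any of the 9 samples), trace (some counts, but removed by the edgeR filter on low counts, which here asked for about 0.329 CPM in at least 3 samples) and expressed (kept by that filter). Of the 35 genes, 23 were silent, 8 were trace and 4 were expressed, and all 4 expressed genes were TALE genes. For comparison, 16.1% of the 17938 protein-coding genes in the files were silent and 64.9% were expressed.

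**Figure D1:**
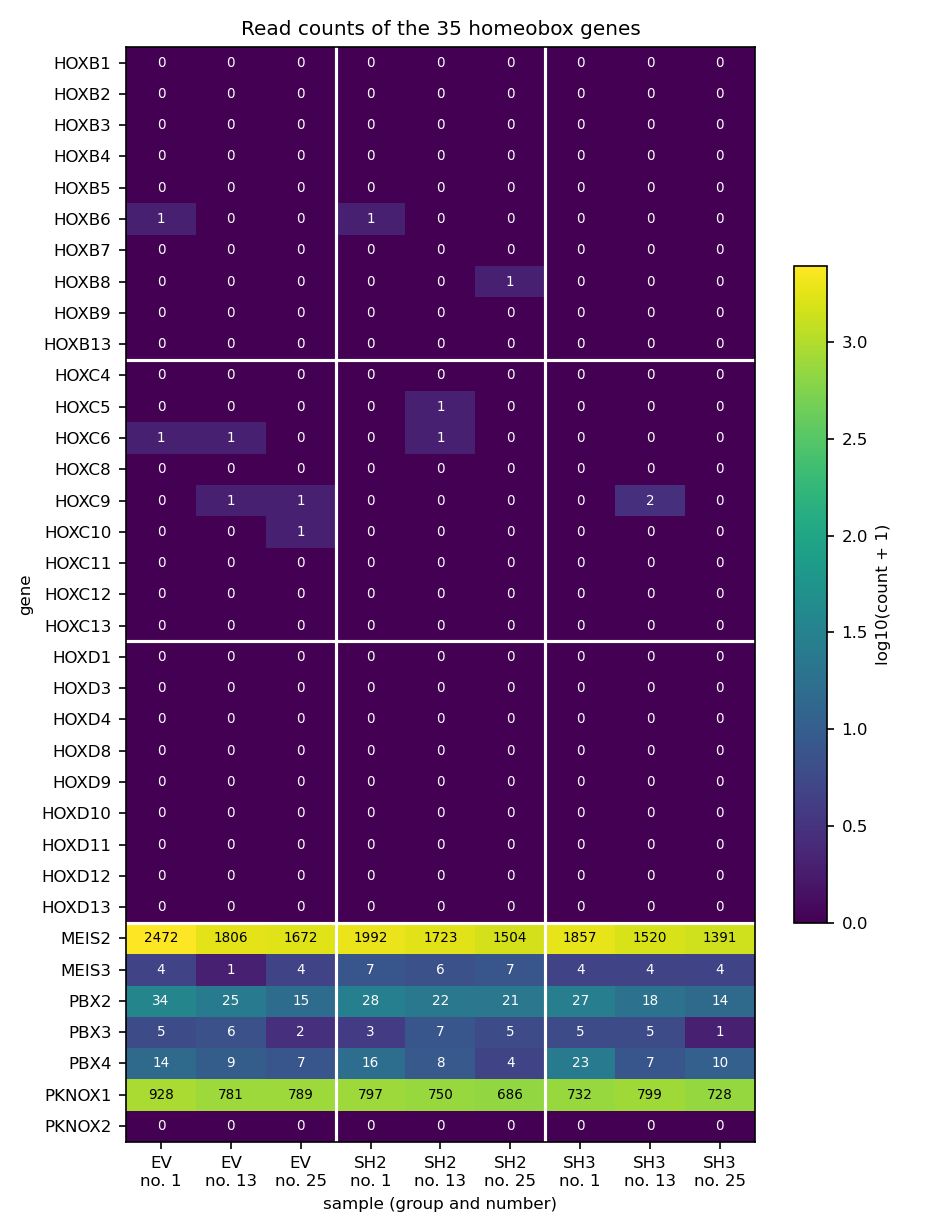
Read counts of the 35 homeobox genes (rows) in the 9 samples (columns, by group and number), with the count printed in each cell and coloured by log10(count + 1). The 28 HOX rows hold 12 counts in all, whereas MEIS2 and PKNOX1 are bright in every sample.

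The 9 HOXD genes (HOXD1, HOXD3, HOXD4, HOXD8, HOXD9, HOXD10, HOXD11, HOXD12 and HOXD13), which in the embryo pattern limbs and the trunk, were silent without exception. Their cluster spans chromosome 2, 176957449 to 177055635 (GRCh37). In the HOXB cluster (chromosome 17, 46605888 to 46806112), whose HOXB4 and neighbours are best known in blood for supporting stem cells, 8 of 10 genes were silent: HOXB1, HOXB2, HOXB3, HOXB4, HOXB5, HOXB7, HOXB9 and HOXB13. HOXB6 had 1 count in EV sample 1 and 1 in SH2 sample 1, and HOXB8 had 1 count in SH2 sample 25. In the HOXC cluster (chromosome 12, 54332615 to 54449814), 5 of 9 genes were silent, namely HOXC4, HOXC8, HOXC11, HOXC12 and HOXC13. HOXC6 had 1 count in each of EV sample 1, EV sample 13 and SH2 sample 13. HOXC9 had 1 count in EV samples 13 and 25 and 2 counts in SH3 sample 13. HOXC5 had 1 count, in SH2 sample 13, and HOXC10 had 1 count, in EV sample 25. No HOX gene of these clusters therefore had more than 2 counts in any sample.

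Over all 28 HOX genes the 9 libraries held 12 counts out of 275533992, of which 9 fell in HOXC, 3 in HOXB and none in HOXD. By group, EV held 6 of these counts (2 in each sample), SH2 held 4 (1, 2 and 1 in samples 1, 13 and 25) and SH3 held 2 (both in sample 13). A gene with no count in a library may still have been present at up to 3 counts, which is 0.0847 to 0.108 CPM at these depths, counting error only. The highest level of any of these HOX genes in a knockdown sample was 0.0617 CPM (HOXC9, SH3 sample 13), so none rose to an appreciable level with either shRNA. Differences within the range of 0 to 2 counts per gene were not detectable at this depth, and no HOX gene could be tested. The 6 trace HOX genes stayed below the filter's limit in all 9 samples.

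Other transcripts of the HOX clusters were also near zero. Of the 23 that were listed and present in the files, which were long non-coding RNAs, microRNAs and the small protein-coding genes PRAC1 and PRAC2, 17 were silent and 6 were trace, and the highest count in any sample was 6, for HOXA11-AS. The libraries were poly(A)-selected per the study, which leaves out transcripts without a poly(A) tail.

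Most of the named genes on either side of the clusters were expressed, though not SKAP1 and TTLL6 beside HOXB or EVX2 beside HOXD. Of 18 named flanking genes 15 passed the filter. Beside HOXB, SNX11 (an endosomal sorting protein) had 23.1 to 32.4 CPM and CALCOCO2 (an autophagy receptor) had 95.4 to 187 CPM, while SKAP1, an adaptor of T cell signalling on the HOXB1 side, was silent. TTLL6, a tubulin-modifying enzyme on the HOXB13 side, was a trace gene with 1 to 32 counts. Beside HOXC, HNRNPA1, an abundant RNA-binding protein, had 1147 ± 72.0 CPM in EV (SD, n = 3), and SMUG1, a DNA repair glycosylase, had 13.3 to 18.0 CPM. On the HOXD side, HNRNPA3 had 680 ± 74.5 CPM and ATP5G3, a subunit of the mitochondrial ATP synthase, had 303 ± 33.3 CPM in EV (SD, n = 3 each). KIAA1715 and MTX2 on that side were lower, at 28.5 ± 3.27 and 40.3 ± 6.40 CPM in EV (SD, n = 3 each). EVX2, the homeobox gene that adjoins HOXD13, was silent. The distances of the named genes from the clusters are not given here. None of the 15 flanking genes was called in SH2 or SH3 against EV, and their median log2 fold change for the mean of both shRNAs was 0.08, beside 0.01 for all genes tested. Against number, 5 of the 15 were higher in the samples numbered 1 (CALCOCO1, NFE2, CALCOCO2, ATF7 and HNRNPA1) and 4 were lower (NFE2L1, HNRNPA3, SNX11 and ATP5G3), beside 24.1% and 22.2% of all tested genes. Between numbers 25 and 13, 1 of the 15 was called (KIAA1715, higher in number 25), beside 5.87% of all tested genes in either direction.

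**Figure D2:**
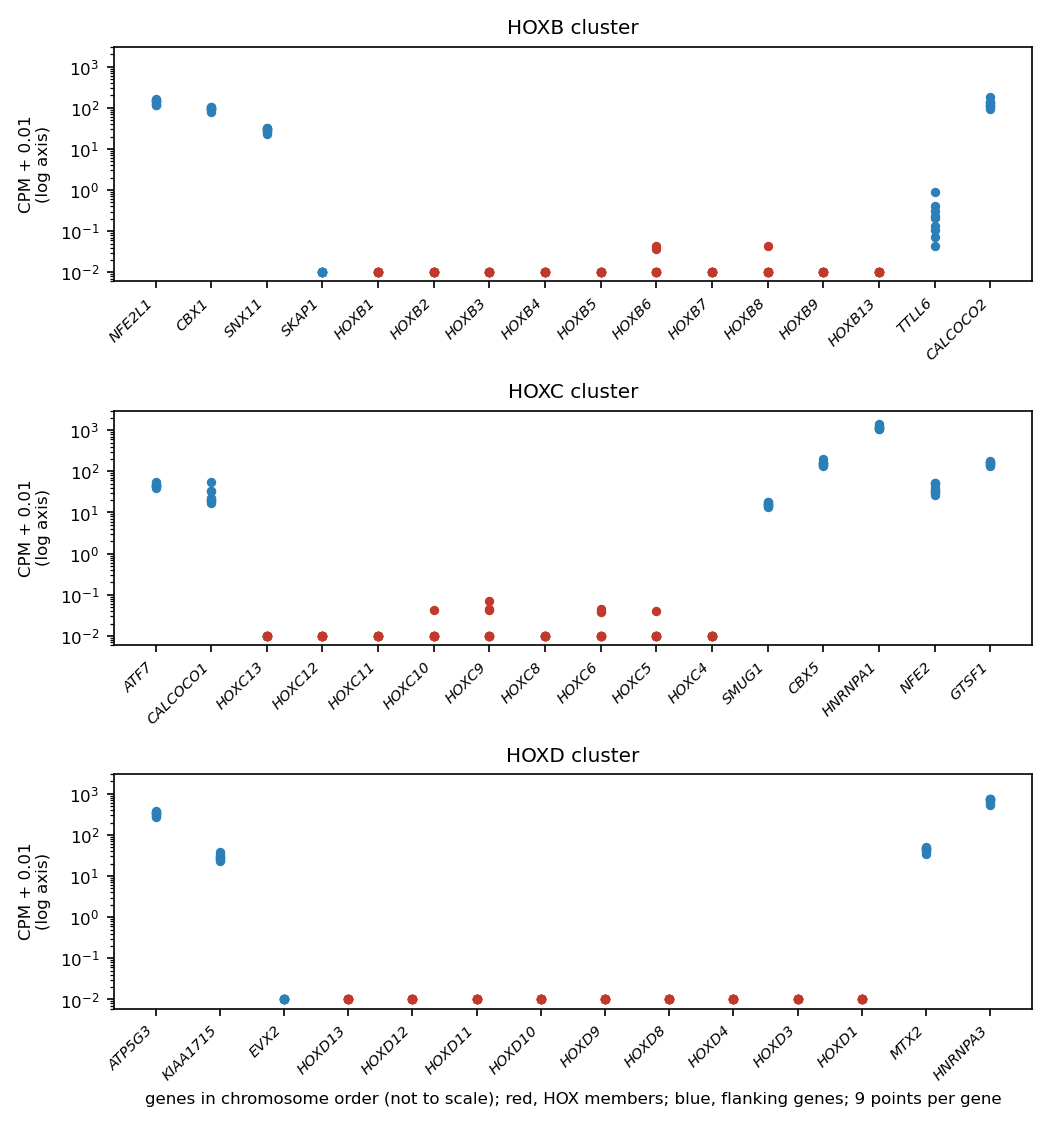
Level of each HOX gene (red) and named flanking gene (blue) of the 3 clusters, as CPM + 0.01 on a log axis, with genes in chromosome order by their 3′ ends and 9 points per gene, 1 per sample. Red points lie at or just above the bottom of the scale, and the blue genes apart from SKAP1, EVX2 and TTLL6 lie above 10 CPM.

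Among the TALE genes, MEIS2 and PKNOX1 carried nearly all reads. The 7 TALE genes held 23309 of the 23321 counts of the 35 genes. MEIS2 (chromosome 15, 37181405 to 37393500, minus strand, GRCh37) is a MEIS family partner of PBX and HOX proteins. Its 9 RefSeq transcripts had almost the same totals, 14849 to 15937 counts over the 9 samples, so the choice of transcript mattered little. PKNOX1 (chromosome 21, 44394620 to 44454041, plus strand), also called PREP1, is a broadly expressed PBX partner, and its 2 transcripts held 6930 and 6990 counts.

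Promoter sequence for 17 of the 35 genes was taken from RefSeq (GRCh38.p14), in 18 distinct windows since HOXC4 and HOXC5 share one, each covering 250 bases before to 50 after a start. Both strands were searched for TGATTNAT, a composite site bound by HOX and PBX proteins together, and for TGTGGT, the core recognised by RUNX proteins, which the AML1-ETO fusion also binds. TGATTNAT occurred in 2 of the 18 windows, at the downstream MEIS2 start and at HOXD11, and in 2.82% of all 35116 promoters in the table. TGTGGT occurred in 2 of the 18, at HOXD10 and in the window of HOXC4 and HOXC5, and in 13.1% of all promoters. These matches are descriptions of letters and not of bound sites. The stretches below, read 5′ to 3′ on the gene's strand and lying upstream of the start, show the abundant MEIS2 beside the silent HOXD11, both with the composite site (in capitals, in HOXD11 on the opposite strand), and PKNOX1, which had neither motif. They lie at chr15:37098697-37098900 (minus strand), chr2:176107030-176107279 (plus strand) and chr21:42974312-42974509 (plus strand) of GRCh38.p14.
MEIS2: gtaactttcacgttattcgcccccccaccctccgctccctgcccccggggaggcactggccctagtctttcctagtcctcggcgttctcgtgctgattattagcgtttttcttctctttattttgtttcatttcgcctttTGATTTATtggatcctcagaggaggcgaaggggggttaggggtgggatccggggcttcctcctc
HOXD11: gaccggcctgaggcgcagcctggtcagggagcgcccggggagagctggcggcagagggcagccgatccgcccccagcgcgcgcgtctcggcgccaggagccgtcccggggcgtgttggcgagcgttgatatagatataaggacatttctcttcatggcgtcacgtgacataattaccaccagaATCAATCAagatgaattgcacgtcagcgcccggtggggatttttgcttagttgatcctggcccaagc
PKNOX1: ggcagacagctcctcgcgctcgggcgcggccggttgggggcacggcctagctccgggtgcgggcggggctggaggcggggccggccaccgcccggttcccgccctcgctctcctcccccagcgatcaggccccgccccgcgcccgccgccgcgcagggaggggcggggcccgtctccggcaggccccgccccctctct

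The windows at hand for silent genes were mostly not poor in CpG dinucleotides, the pairs at which vertebrate DNA is methylated and which cluster at many developmental promoters. The 10 windows of silent genes held a median of 23.5 CpG (4 to 36), the 5 of expressed genes a median of 35 (8 to 46) and the 4 of trace genes a median of 14.5 (13 to 43), beside a median of 14 over all promoters. The window of HOXC4 (silent) and HOXC5 (trace) is counted under both. The silent windows were those of HOXB1, HOXC4 and the HOXD genes except HOXD9, so they mainly describe the HOXD cluster. Those of HOXD4 (4 CpG) and HOXB1 (11 CpG) lay below the median of all promoters. The ranges overlapped, and methylation was not measured in these libraries.

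MEIS2 was the most abundant of the 35 genes. Its level was 68.0, 61.4 and 55.7 CPM in EV samples 1, 13 and 25, 66.7, 54.0 and 52.1 CPM in SH2, and 63.2, 46.9 and 50.6 CPM in SH3. The group means were 61.7 ± 6.12 CPM in EV, 57.6 ± 7.93 CPM in SH2 and 53.6 ± 8.54 CPM in SH3 (SD, n = 3 each). The groups overlapped: the knockdown samples ranged from 46.9 to 66.7 CPM and the EV samples from 55.7 to 68.0 CPM. In each group the sample numbered 1 was the highest.

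PKNOX1 was nearly level across all samples. It had 25.5, 26.6 and 26.3 CPM in EV, 26.7, 23.5 and 23.8 CPM in SH2, and 24.9, 24.7 and 26.5 CPM in SH3, again in the order 1, 13 and 25. The group means of 26.1 ± 0.544, 24.6 ± 1.76 and 25.4 ± 0.992 CPM (SD, n = 3) lay within the spread of the samples.

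PBX2 and PBX4 passed the filter at low counts. PBX2 (chromosome 6, 32152510 to 32157979, minus strand), a PBX protein made in most tissues, had 34, 25 and 15 counts in EV, 28, 22 and 21 in SH2 and 27, 18 and 14 in SH3, or 0.500 to 0.937 CPM. All 3 groups overlapped. Few of its neighbours were counted either: of 80 protein-coding genes within 1 Mb on each side, 19 (23.8%) passed the filter, against 64.9% of all protein-coding genes, and 57 had fewer than 10 counts in every sample. The gene lies in the major histocompatibility complex and has a processed pseudogene, and how reads with several matches were handled is not given in the sources used here, so its level is uncertain. The part of these features in the low count was not tested.

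PBX4 (chromosome 19, 19672516 to 19729502, minus strand), a PBX gene best known from testis, had 14, 9 and 7 counts in EV, 16, 8 and 4 in SH2 and 23, 7 and 10 in SH3. Its means were 0.308 ± 0.0758 CPM in EV, 0.308 ± 0.205 CPM in SH2 and 0.454 ± 0.294 CPM in SH3 (SD, n = 3). As for MEIS2, sample 1 was the highest of each group.

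The remaining TALE genes were trace or silent. PBX3, a PBX gene that is high together with HOXA9 and MEIS1 in other leukaemias, had 5, 6 and 2 counts in EV, 3, 7 and 5 in SH2 and 5, 5 and 1 in SH3, without a separation of groups. MEIS3, the least studied MEIS gene, had 4, 1 and 4 counts in EV, 7, 6 and 7 in SH2 and 4, 4 and 4 in SH3. The SH2 samples were thus above all EV samples, as were 2.66% of the 5713 genes with counts that the filter removed. Against the EV sample of the same number MEIS3 was higher in CPM in 6 of 6 pairs, as were 1.37% of those genes. Those genes include some without a count in a knockdown sample, which cannot be higher there, whereas MEIS3 had counts in all 9 samples. Both shares may thus make MEIS3 look rarer than it was, and of the 14199 genes tested 11.6% were higher in 6 of 6 pairs. The log2 ratios of MEIS3 were 1.09, 2.47 and 0.86 in SH2 and 0.31, 1.86 and 0.13 in SH3 (numbers 1, 13 and 25). The EV sample numbered 13, behind the highest ratio of each shRNA, held 1 count. Without the filter edgeR gave MEIS3 a log2 fold change of 1.21 (SE 0.55) in SH2 and an adjusted p of 0.948, and in SH3 0.50 (SE 0.59, adjusted p = 0.940), so it was not called. PKNOX2, which is expressed mainly in brain and muscle, was silent.

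**Figure D3:**
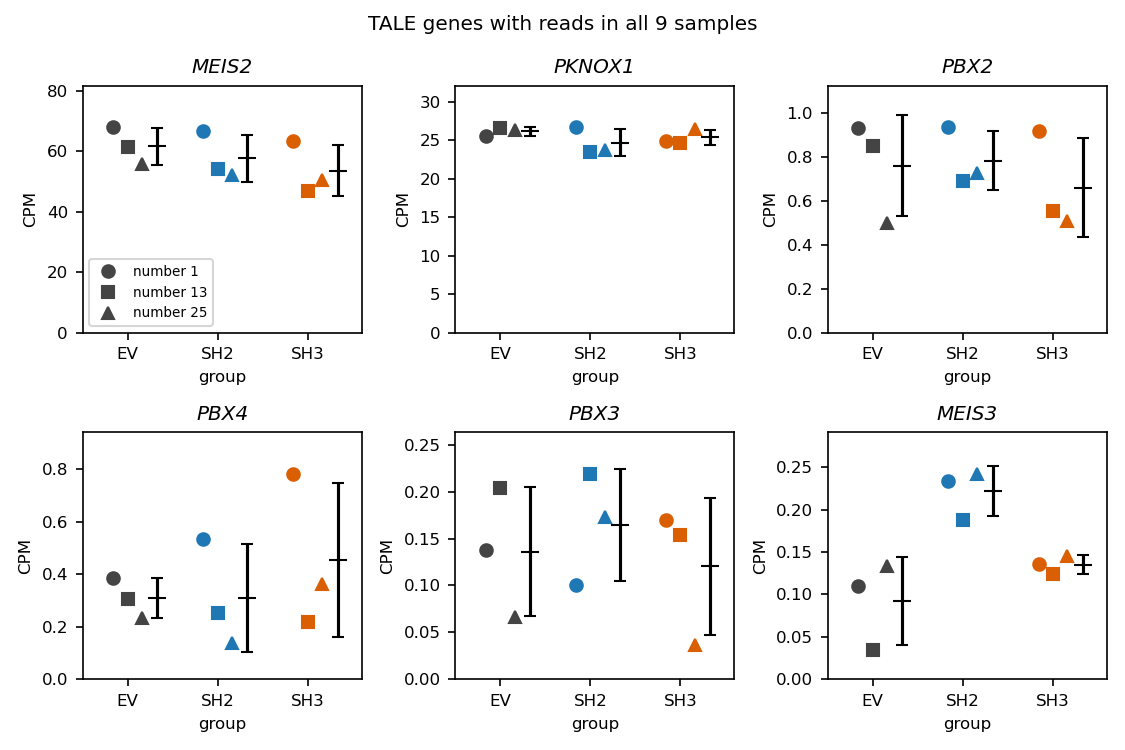
CPM of the 6 TALE genes with reads in all 9 samples, by group (linear axes from 0, each panel on its own scale). Symbols give the sample number, and the bar beside each group is the mean with its SD (n = 3). In MEIS2, PBX2 and PBX4 the circles (number 1) lie above the other symbols, and the 3 groups overlap in these genes and in PKNOX1.

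Levels of different genes were set side by side per length, as EV CPM per kilobase of the GENCODE canonical transcript. MEIS2 had 11.3 CPM per kilobase, which was the 56.4th percentile of 12338 tested genes with a length, beside a median of 8.70. PKNOX1 followed at 4.93 (37.5th percentile), and PBX2 at 0.236 and PBX4 at 0.206 lay at percentiles 5.96 and 5.13. PBX2 and PBX4 did not differ in order beyond the spread of their samples.

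ASXL2 knockdown called none of the 4 expressed genes. In edgeR's quasi-likelihood test with Benjamini-Hochberg adjustment over 14199 genes, 0 of 4 passed an adjusted p of 0.05 in SH2 against EV, SH3 against EV, the mean of both against EV, or SH3 against SH2. The share of all tested genes called was 0% in each of these 4 contrasts, so the absence of calls says little about these genes. The same test gave 762, 723, 942 and 293 genes an unadjusted p under 0.05 in these contrasts, and DESeq2 called 25, 26, 56 and 11. With the number as a block the shares called rose to 0.282%, 0.416%, 1.10% and 0.106%, and still 0 of 4 were among them.

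Of the 4 expressed genes, only MEIS2 lay on the same side of EV in every pair. Against the EV sample of the same number its log2 ratio was -0.03, -0.19 and -0.10 in SH2 and -0.10, -0.39 and -0.14 in SH3 (numbers 1, 13 and 25). It was thus lower in 6 of 6 pairs, as were 11.6% of all tested genes (another 11.6% were higher in 6 of 6), and both shRNAs share the same EV samples. The fitted log2 fold change was -0.10 (SE 0.14, adjusted p = 0.989) in SH2 and -0.20 (SE 0.14, adjusted p = 0.971) in SH3. With the number as a block the estimates were -0.10 (SE 0.07, adjusted p = 0.453) and -0.21 (SE 0.07, adjusted p = 0.168), so MEIS2 was not called in either fit. SH3 and SH2 differed by -0.10 (adjusted p = 0.998), which was no larger than the spread.

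The other expressed genes had no common direction. PKNOX1 was lower than its EV sample in 4 of 6 pairs, with log2 fold changes of -0.08 (SE 0.09, adjusted p = 0.989) in SH2 and -0.04 (SE 0.09, adjusted p = 0.983) in SH3. PBX2 was lower in 3 of 6 pairs, with 0.04 (SE 0.34) in SH2 and -0.21 (SE 0.34) in SH3. PBX4 was lower in 3 of 6 pairs, with -0.01 (SE 0.59) in SH2 and 0.54 (SE 0.57) in SH3. At 4 to 34 counts per sample the standard errors of PBX2 and PBX4 were several times those of MEIS2 and PKNOX1, so only large changes could have been called.

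**Figure D4:**
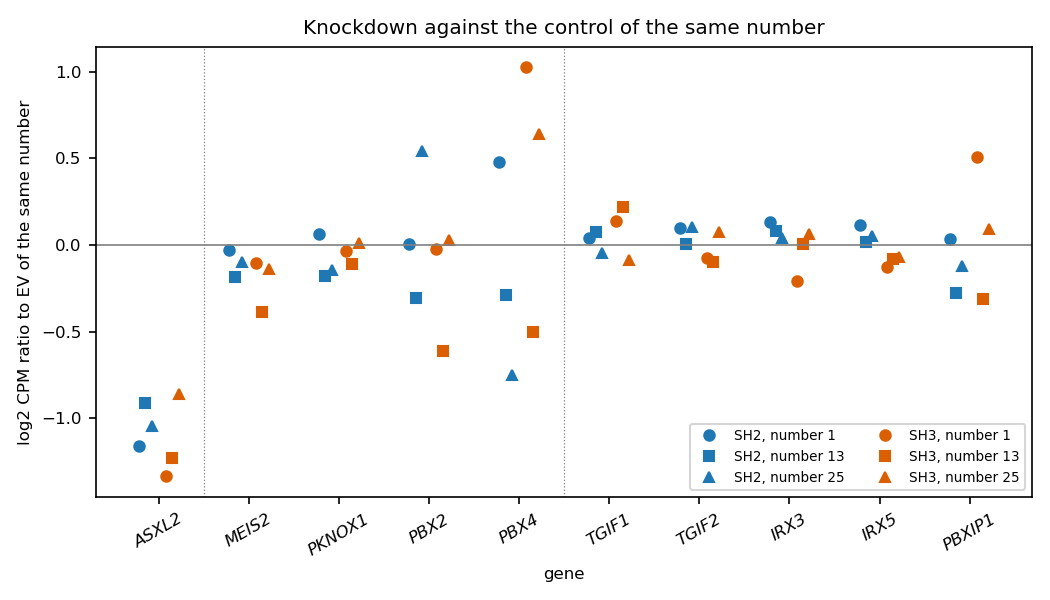
Log2 ratio of CPM in each SH2 (blue) and SH3 (orange) sample to the EV sample of the same number, for ASXL2 (left), the 4 expressed genes (middle), and other TALE genes with PBXIP1 (right). Symbols give the number. ASXL2 lies between about -1.3 and -0.9 in all 6 pairs, MEIS2 just below 0 in 6 of 6, and PBX2 and PBX4 scatter on both sides of 0.

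MEIS2 differed with the sample number. In the fit with group and number, MEIS2 was higher in the samples numbered 1 than in the mean of those numbered 13 and 25, by 0.31 on the log2 scale (SE 0.06, adjusted p = 0.00316), with means of 65.9 ± 2.46, 54.1 ± 7.25 and 52.8 ± 2.63 CPM (SD, n = 3 each). PBX2 was 0.55 higher (SE 0.22, adjusted p = 0.0629) and PKNOX1 0.03 higher (SE 0.07, adjusted p = 0.748), neither of them called. Of the 3 genes that reached the filter's limit in all 9 samples, 1 was thus called, and 24.1% of all tested genes were called higher, 22.2% lower and 46.3% in either direction. For MEIS2 and PBX2 all 3 samples numbered 1 were above all 6 others, as they were for 14.4% of tested genes. PBX4 reached the filter's limit in 4 samples, of which 3 were numbered 1, so it entered the test through the samples in which it was high, and its values are given as a description: 0.568 ± 0.201, 0.258 ± 0.0454 and 0.245 ± 0.113 CPM in numbers 1, 13 and 25 (SD, n = 3 each). Its fitted difference was 1.15 on the log2 scale (SE 0.32), and was 1.02 without SH2 sample 1 and 0.95 without SH3 sample 1. Because of how PBX4 entered the test, no p-value is read for it in this contrast. Between numbers 25 and 13, 0 of 4 were called, against 5.87% of all tested genes.

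Of the remaining HOX and TALE family genes, few besides TGIF and Iroquois genes were expressed. Of 25 genes on this list in the files 15 were silent, including MEIS1, the usual partner of HOXA9 in leukaemia, and most HOXA genes. HOXA4, HOXA5 and HOXA11 were trace, with at most 5 counts for HOXA11. Expressed were TGIF1 and TGIF2, TALE repressors of TGF-beta signalling, at 42.7 ± 1.60 and 112 ± 15.3 CPM in EV, and IRX3, IRX5 and IRX6, of the Iroquois branch of the TALE class, at 115 ± 5.59, 47.2 ± 3.21 and 1.70 ± 0.709 CPM (SD, n = 3 each). PBXIP1, which binds PBX proteins and limits their activity, had 58.1 ± 21.1 CPM. Per kilobase, IRX3 (43.8), TGIF2 (32.8), IRX5 (19.7), PBXIP1 (18.1) and TGIF1 (13.5) had higher EV means than MEIS2, although the EV samples of PBXIP1 overlapped those of MEIS2. None of the 6 expressed genes was called in any shRNA contrast, with or without the block. Against number, PBXIP1 (1.08, SE 0.10, adjusted p = 0.00014) and TGIF2 (0.22, SE 0.06, adjusted p = 0.00993) were higher in the samples numbered 1 and IRX6 was lower (-0.84, SE 0.20, adjusted p = 0.00682). That is 2 of 6 higher and 1 of 6 lower, beside 24.1% and 22.2% of all tested genes, so it is no trait of this list.

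Genes known to regulate HOX clusters were mostly expressed. Of 17 such genes in the files, 14 were expressed, with GFI1, a repressor, at 368 ± 31.5 CPM, KMT2A at 355 ± 71.6 CPM and MLLT1 at 223 ± 29.3 CPM in EV (SD, n = 3). CDX2 and CDX4, caudal-type activators of HOX genes, were silent, and CDX1 had at most 2 counts. Without the block 0 of 14 were called by shRNA. With the block 2 of 14, beside 1.10% of all tested genes, fell in the mean of both shRNAs against EV: AFF1, a subunit of the super elongation complex, by 0.31 on the log2 scale (SE 0.06, adjusted p = 0.0470) and KAT6A, a histone acetyltransferase, by 0.43 (SE 0.09, adjusted p = 0.0489). Both were lower in 6 of 6 pairs, as were 11.6% of all tested genes. For the single shRNAs neither was called by edgeR with the block. AFF1 had an adjusted p of 0.0661 in SH2 and 0.129 in SH3, and KAT6A had 0.101 and 0.0825. These 2 calls are not firm, since both adjusted p-values lay just under 0.05 and neither gene was called without the block. Over all genes, calls in the mean of both shRNAs ranged from 2 to 1755 when single samples were left out of the blocked fit. Which of those fits kept AFF1 or KAT6A is not given here. KMT2A was at 250 ± 14.7 CPM in SH2 and 242 ± 39.1 CPM in SH3, also lower in 6 of 6 pairs, with a log2 fold change of -0.52 (SE 0.11) and an adjusted p of 0.0572 with the block, so it was not called. The canonical transcripts of AFF1, KAT6A and KMT2A are 9261, 9153 and 16600 bases long. With a transcript length correction added to the block, fewer genes were called in the mean of both shRNAs against EV. Whether AFF1 or KAT6A was among them is not given here, and the part of length in these lower levels was not tested. The median log2 fold change of the 14 genes was -0.06, beside 0.01 over all genes tested. Against number, MLLT3, RARG and AFF1 were higher in the samples numbered 1 and MLLT1, RARA and CTCF were lower, which is 3 of 14 each way beside 24.1% and 22.2% of all tested genes. Between numbers 25 and 13 GFI1 was higher and RARA lower in number 25. That is 1 of 14 each way, beside 5.87% of all tested genes in either direction.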

How the data were processed

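RNA from 9 SKNO-1 samples was sequenced as unstranded poly(A) libraries. The authors deposited unnormalized counts, a whole number for each RefSeq transcript on hg19 (the submitters' processing notes name STAR, featureCounts and DESeq2). For each of 25680 symbols the transcript of highest total was kept, since the counts of a gene's transcripts largely repeated each other. This depends on transcript coverage and hides isoform shifts. Depth was 27714431 to 35406063 counts per sample, where 3 counts are 0.0847 to 0.108 CPM. Replicates of a group differed beyond sampling noise, so none was merged. edgeR 4.0.16 in R 4.3.3 (TMM, filterByExpr with a minimum count of 10, quasi-likelihood F test, Benjamini-Hochberg threshold 0.05) tested 14199 genes over all 9 samples with no block, as the study's methods used none. Numbers 1, 13 and 25 come from the labels. Samples of the same number deviated together from their group means (correlation 0.398 to 0.731 in all 9 pairs), so they were treated as paired in a second fit with the number as a block. The mean between numbers, -0.291, is no further evidence of pairing. Centring on the mean of 3 samples makes it negative when samples of the same number correlate. The edgeR script was checked on simulated counts. Expressed members were named in full, trace members by their counts, and list genes where called or among the 3 most abundant in EV. Genes outside this rule (SMUG1, MTX2, the silent flanking genes and HOXA and TALE genes without calls) were picked after values were seen. The genes and lists were chosen with earlier results of these data known. Alternatives were DESeq2 1.42.0, other scaling, no filter, summed transcripts and omitted samples. Gene coordinates are GENCODE v44 lifted to GRCh37. Promoters are RefSeq GRCh38.p14. Protein sequences were not used here. Some genes of the comparison lists are not reported here.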

Additional observations from a re-analysis of the deposited data

How the results depend on the processing

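The number of homeobox genes called by shRNA was 0 in all 4 contrasts under every alternative run, and the block changed no call of a member. In the comparison of number 1 with numbers 13 and 25, MEIS2 was called under every alternative. PBX4, which entered that test through the samples in which it was high, is not counted there. Counted as expressed at 1 CPM or more in at least 3 samples, 2 members remained, MEIS2 and PKNOX1. The calls over all genes depended on the model. For SH2 against EV, SH3 against EV, their mean against EV and SH3 against SH2, 0 genes were called without the block, 40, 59, 156 and 15 with the replicate block, 25, 26, 56 and 11 with DESeq2, and 374, 474, 622 and 152 with DESeq2 and the block. They were 6, 21, 13 and 7 with the block and a transcript length correction, and 267, 341, 370 and 129 with the block and without the samples numbered 1. Leaving out single samples gave 0 to 0, 0 to 1, 0 to 2 and 0 to 0 without the block, and 0 to 1604, 1 to 368, 2 to 1755 and 0 to 257 with it, where 1604, 368 and 1755 came without SH3 sample 1. Number 25 against 13 gave 304 genes without the group term, and 50 (without EV sample 25) to 2750 (without SH3 sample 1) with single samples left out.

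Some fold changes changed sign, none of them called. MEIS2 kept its sign against EV but moved by over 1.5 times: with single samples left out it ranged from -0.22 to -0.02 in SH2 and from -0.34 to -0.12 in SH3, and with the block and length correction it was -0.03 in SH2. PBX4 in SH2 was 0.016 with summed transcripts and PKNOX1 in SH3 was 0.0028 with the block and length correction. With single samples left out, over fits with and without the block, SH2 against EV ranged from -0.65 to 0.32 for PBX4 and from -0.19 to 0.24 for PBX2, SH3 against EV from -0.12 to 0.88 for PBX4, the mean against EV from -0.31 to 0.11 for PBX2 and from -0.18 to 0.51 for PBX4, and SH3 against SH2 from -0.24 to 0.014 for MEIS2 and from -0.11 to 1.19 for PBX4. Number 1 against 13 and 25 ranged from -0.045 to 0.071 for PKNOX1, and number 25 against 13 from -0.092 to 0.038 for MEIS2 and from -0.51 to 0.21 for PBX4. The alternatives that add the block to DESeq2 or to left-out samples were chosen after seeing the data. Restricting the fit to the groups compared gave no value for the mean of both shRNAs. At 0 to 2 counts, depth limits every statement on differences of the HOX genes within that range.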
